A study of Homo sapiens with 16 samples.

Results

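Described here are CXCL8 and 9 genes that belong with it as chemokines or as parts of the NF-κB pathway: the chemokines CXCL1, CXCL2, CXCL3 and CCL20, the feedback inhibitors NFKBIA and TNFAIP3, the inhibitor of apoptosis BIRC3, the NF-κB subunit RELB and the cytokine LIF. Each gene was read from the probe sets whose only gene symbol was its own, taking the brightest of them. Of the 10 names 9 had such a probe set, 1 each, among 22395 genes with one. Of these 9, 8 were bright enough on average to be tested with 15676 genes in all, CCL20 is given by its values alone, and BIRC3 was not analysed here.

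DLD1 and HCT116, the sources of RNA, are long-established lines grown from human colorectal carcinomas. Each was used as 2 derivatives, Mut and WT, named for the allele of PIK3CA they retain. PIK3CA encodes the catalytic p110-alpha subunit of phosphoinositide 3-kinase. In Mut cells the mutant allele remained because the WT allele had been knocked out, and in WT cells the mutant allele had been knocked out. The question put to the cells was how each derivative responds to loss of glutamine: all were kept for 24 h in DMEM with 10% dialyzed serum, either with glutamine (+Gln) or without it (-Gln). This gave 8 groups, DLD1 Mut, DLD1 WT, HCT116 Mut and HCT116 WT, each +Gln and -Gln, with 2 arrays per group and 16 in all. Every derivative had 1 allele knocked out, so no group held the unmodified parental line, and the labels name a single derivative for each genotype of a line. The labels call the 2 arrays of a group biological replicates without saying how the cultures were separated. Each p-value sets a difference of means against the spread of arrays within groups. This spread is pooled over the 8 groups and drawn by limma toward that of all tested genes. The p-values therefore speak for these samples alone.

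NF-κB is a family of transcription factors held in the cytoplasm by inhibitors of the IκB family and released when receptors for inflammatory signals activate the IκB kinase complex. Among the genes it switches on are chemokines, small secreted proteins that draw leukocytes, and its own inhibitors, which end the response. A slower arm runs through the kinase NIK, the product of MAP3K14, and the subunits encoded by NFKB2 and RELB. CXCL8 and the related CXCL1, CXCL2 and CXCL3 act on the receptors CXCR1 and CXCR2, and CCL20 acts on CCR6.

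The promoters of CXCL1, CXCL2 and CXCL3 are shown because they are much alike while the values of the 3 genes differed, and that of CXCL8 for comparison. The 150 bases before the RefSeq gene start (GRCh38.p14) are printed on each gene's own strand, with matches to the κB motif GGNNNTTCC and to the AP-1 motif TGANTCA, searched on both strands, in capitals. They lie at chr4:73740419-73740568 (plus strand) for CXCL8, chr4:73869243-73869392 (plus) for CXCL1, chr4:74099196-74099345 (minus) for CXCL2 and chr4:74038690-74038839 (minus) for CXCL3.
CXCL8: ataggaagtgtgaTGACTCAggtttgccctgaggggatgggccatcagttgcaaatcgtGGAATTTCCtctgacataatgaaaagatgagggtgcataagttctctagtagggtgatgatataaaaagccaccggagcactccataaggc
CXCL1: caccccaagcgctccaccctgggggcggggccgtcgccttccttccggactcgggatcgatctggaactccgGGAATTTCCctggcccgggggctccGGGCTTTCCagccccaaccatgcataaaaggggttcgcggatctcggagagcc
CXCL2: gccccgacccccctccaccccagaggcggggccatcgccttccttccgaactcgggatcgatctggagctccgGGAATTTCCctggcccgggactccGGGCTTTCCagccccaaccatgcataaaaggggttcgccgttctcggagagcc
CXCL3: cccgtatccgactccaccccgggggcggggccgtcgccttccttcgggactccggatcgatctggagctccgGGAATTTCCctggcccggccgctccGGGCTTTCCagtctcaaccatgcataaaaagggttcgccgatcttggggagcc
CXCL1 and CXCL2 were identical at 88.74% of aligned positions, CXCL1 and CXCL3 at 88.08% and CXCL2 and CXCL3 at 86.09%, and each of the 3 holds 2 κB matches. CXCL8 was identical to them at 43.56% to 45.12% and holds 1 κB match and 1 AP-1 match. The 2 feedback inhibitors follow, from chr14:35404750-35404899 (minus) for NFKBIA and chr6:137867109-137867258 (plus) for TNFAIP3.
NFKBIA: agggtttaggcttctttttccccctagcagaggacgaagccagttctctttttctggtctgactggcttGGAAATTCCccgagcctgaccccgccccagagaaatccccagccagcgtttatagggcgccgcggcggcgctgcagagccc
TNFAIP3: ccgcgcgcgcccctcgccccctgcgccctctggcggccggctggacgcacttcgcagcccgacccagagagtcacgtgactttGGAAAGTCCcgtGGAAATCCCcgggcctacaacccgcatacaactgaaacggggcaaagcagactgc
Promoters were in the RefSeq table for 8 of the 10 genes, and RELB and LIF were not among them. A κB match was found in 7 of the 8, against 11.1% of 27305 promoters of the same length, and an AP-1 match in 1 of the 8, against 4.14%. The genes were chosen as chemokines or parts of the NF-κB pathway, and the CXCL1, CXCL2 and CXCL3 promoters are much alike. These shares are therefore a description. A match describes the letters of the window and is not evidence of a bound site.

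**Figure D1:**
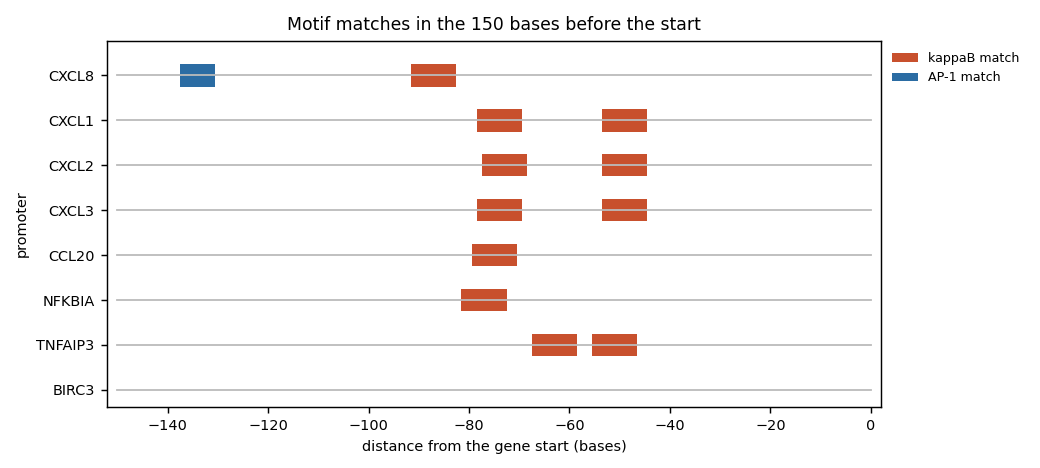
Positions of κB matches (orange) and AP-1 matches (blue) in the 150 bases before the gene start of 8 genes, by distance from the start in bases. CXCL1, CXCL2 and CXCL3 carry their matches at nearly the same distances, and the AP-1 match is in CXCL8.

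The arrays were alike in scale, with median intensities of 3.57 to 3.70, and the 2 arrays of each group had r = 0.989 to 0.992 over tested genes, which are not independent replicates. All 8 colon epithelial markers were bright enough to test, EPCAM the brightest at a mean log2 level of 10.8 and VIL1 the dimmest at 2.03. VIL1 had group means of 1.56 to 1.68 in HCT116 and was bright enough on average only through DLD1. Its mean lay below those of the 2 tested leukocyte markers, CSF1R and CD79A (2.40 each). The summed intensity of the 8 epithelial markers ran from 6176 to 8272 in DLD1 and from 4159 to 5617 in HCT116. Of 8 leukocyte markers with a probe set 2 were tested, of 6 fibroblast markers 1 and of 4 endothelial markers 0, and the leukocyte marker PTPRC had a mean log2 level of 0.93. PIK3CA had no probe set of its own in the annotation used and was not analysed here, so the genotype labels were not checked against it. In RNA from a whole culture, fewer cells that express a gene and less of its RNA per cell cannot be told apart.

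Glutamine withdrawal was followed by higher RELB, TNFAIP3 and LIF in 3 of the 4 derivatives and by no called change of any of the 8 tested genes in HCT116 WT cells. Calls are at an adjusted p under 0.05 over all tested genes from limma, and every change within a derivative is a difference of mean log2 intensity ± SE between 2 and 2 arrays. In DLD1 Mut cells 3 of the 8 rose (RELB, TNFAIP3, LIF) and 2 fell (CXCL1, CXCL3), where 33.6% of all tested genes were called, 16.8% higher and 16.8% lower. In DLD1 WT cells the same 3 genes rose and none fell, against 27% called in all, 14% higher and 13% lower. HCT116 Mut cells had 4 higher (the same 3 and CXCL8) and 1 lower (NFKBIA), against 32.9% called, 16.4% higher and 16.5% lower. In HCT116 WT cells limma called 0 of 8, against 20.3% of all genes, 10.3% higher and 10.1% lower. NFKBIA and LIF were the 2 of 8 under an unadjusted 0.05 there. The median change of the 8 was 0.02, 0.26, 0.66 and 0.20 in DLD1 Mut, DLD1 WT, HCT116 Mut and HCT116 WT cells, and that of all tested genes lay between -0.03 and 0.01. Because CXCL3 passed the brightness limit only through 1 group, as given with its values, these counts and medians are a description.

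**Figure D2:**
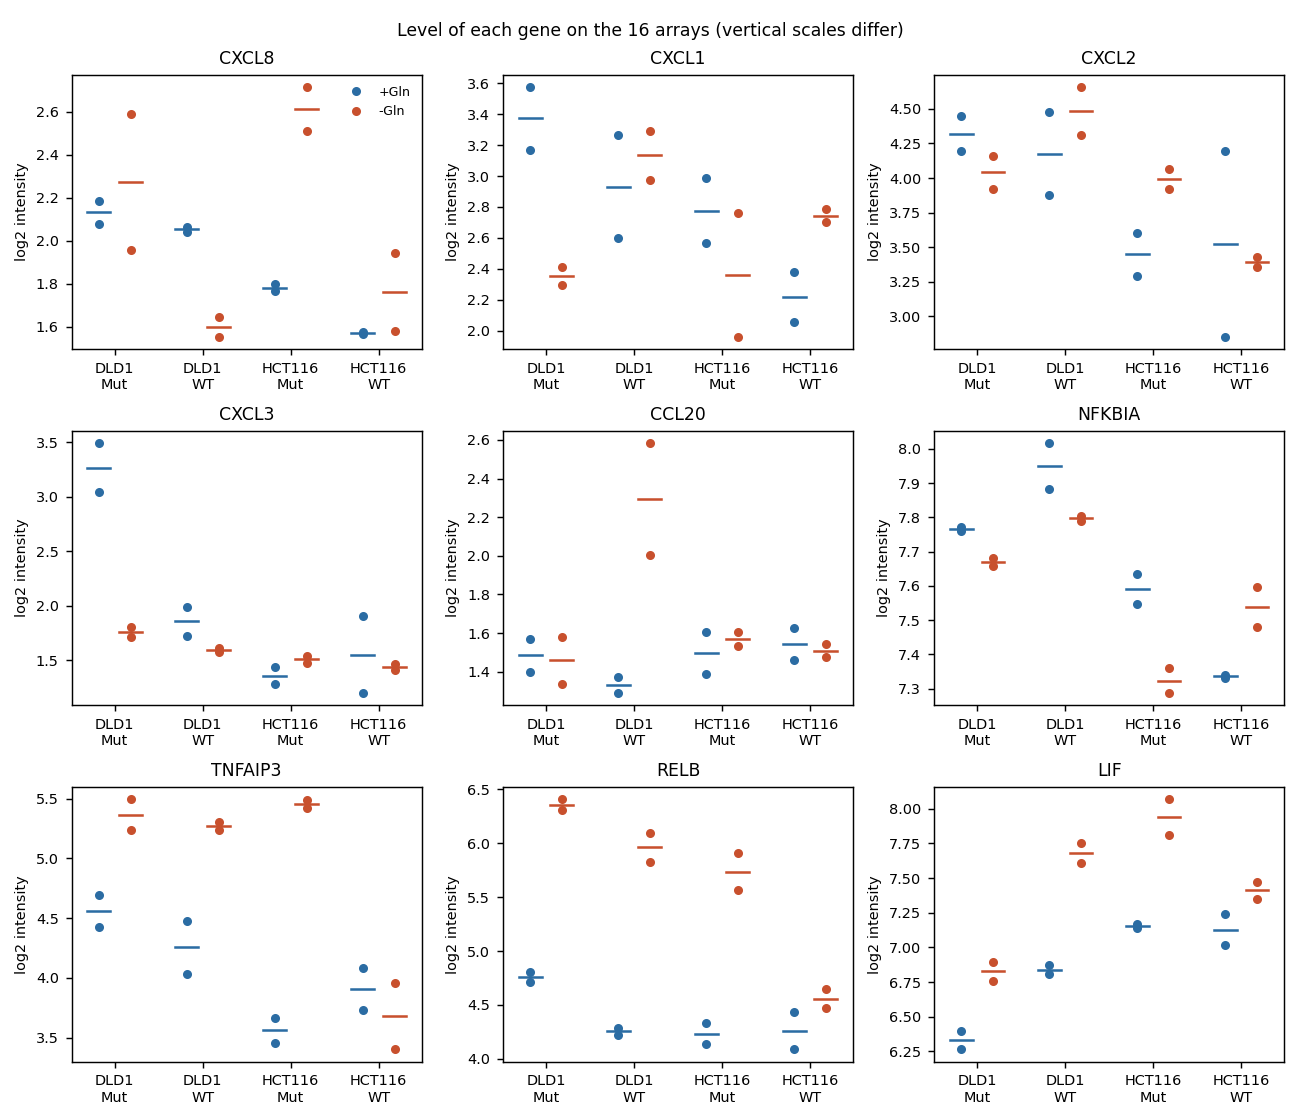
Log2 intensity of 9 genes on each of the 16 arrays, by derivative, with glutamine in blue and without it in orange; points are arrays, bars are group means and vertical scales differ between genes. RELB and TNFAIP3 without glutamine stand apart from all arrays with it in DLD1 Mut, DLD1 WT and HCT116 Mut cells, while CXCL3 is high in DLD1 Mut cells with glutamine.

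CXCL8 encodes interleukin 8, which attracts neutrophils. It stood at log2 levels of 1.80 and 1.77 in HCT116 Mut cells with glutamine and at 2.51 and 2.72 without it, and in HCT116 WT cells at 1.58 and 1.57 with and 1.58 and 1.94 without. In DLD1 Mut cells it was at 2.08 and 2.19 with and 1.96 and 2.59 without, and in DLD1 WT cells at 2.07 and 2.04 with and 1.55 and 1.65 without. The HCT116 Mut arrays without glutamine thus lay above 13 of the other 14, and in DLD1 WT cells both arrays without glutamine lay below those with it. CXCL8 rose 1.78-fold in HCT116 Mut cells (0.83 ± 0.18, adjusted p = 0.00512). No call was made for it in DLD1 Mut (0.14 ± 0.18), DLD1 WT (-0.45 ± 0.18) or HCT116 WT cells (0.19 ± 0.18). The DLD1 WT value was called without DLD1 Mut -Gln replicate 1 or 2, arrays outside that comparison that enter the shared estimate of spread (adjusted p = 0.0257 in both), and the HCT116 Mut value was 0.19, still called, on log2(intensity + 16). Ordered by group mean, HCT116 Mut -Gln (2.61 ± 0.15 SD, n = 2) overlapped with DLD1 Mut -Gln (2.27 ± 0.45), which overlapped with DLD1 Mut +Gln, and the lowest group was HCT116 WT +Gln (1.57 ± 0.01). Signal was low throughout: the intensities ran from 2.94 to 6.57, and CXCL8 was above the array's own median on 9 of 16 arrays. The files used here give no detection call, so whether the dimmer arrays hold signal above background was not tested.

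CXCL1, CXCL2 and CXCL3 encode the GRO chemokines, which act on the same receptor as CXCL8. Their sequences are near-identical, and how far 1 probe set also reads the others was not tested, so their values are uncertain. CXCL1 in DLD1 Mut cells was at 3.17 and 3.58 with glutamine and 2.30 and 2.41 without, a fall by 1.02 ± 0.29 on the log2 scale (2.03-fold, adjusted p = 0.0193) with no overlap of the arrays. This call was lost without DLD1 Mut +Gln replicate 2 (-0.82, adjusted p = 0.129), DLD1 Mut -Gln replicate 1 (-0.96, adjusted p = 0.0893) or DLD1 Mut -Gln replicate 2 (-1.08, adjusted p = 0.0600). In DLD1 WT cells CXCL1 was at 2.60 and 3.26 with and 2.98 and 3.29 without glutamine, which overlap. It was at 2.99 and 2.57 with and 1.96 and 2.76 without in HCT116 Mut cells, and at 2.38 and 2.06 with and 2.70 and 2.79 without in HCT116 WT cells. Every group overlapped with the next in the order of CXCL1 means, from DLD1 Mut +Gln (3.37 ± 0.29 SD, n = 2) down to HCT116 WT +Gln (2.22 ± 0.23), and none of the other 3 withdrawal changes was called.

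CXCL2 was not called after glutamine withdrawal in any derivative. Its levels in DLD1 Mut cells were 4.45 and 4.19 with and 3.92 and 4.16 without glutamine, and in DLD1 WT cells 4.48 and 3.88 with and 4.66 and 4.31 without. In HCT116 Mut cells they were 3.29 and 3.61 with and 3.92 and 4.06 without, and in HCT116 WT cells 2.85 and 4.20 with and 3.35 and 3.43 without. The HCT116 WT arrays with glutamine were the lowest and the highest of that line, and neighbouring groups overlapped at every step of the order. Changes ranged from -0.28 ± 0.35 in DLD1 Mut to 0.54 ± 0.35 in HCT116 Mut cells.

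CXCL3 was high in 1 group. In DLD1 Mut cells with glutamine it stood at 3.49 and 3.04 and without at 1.81 and 1.72, while the other 6 groups lay between 1.20 and 1.99, so only the DLD1 Mut +Gln arrays stood apart. Without glutamine it fell in DLD1 Mut cells by a log2 change of -1.50 ± 0.21 (2.84-fold, adjusted p = 0.00028), and it was not called in DLD1 WT (-0.26 ± 0.21), HCT116 Mut (0.15 ± 0.21) or HCT116 WT cells (-0.11 ± 0.21). With glutamine it was 2.66-fold higher in DLD1 Mut than in DLD1 WT cells (1.41 ± 0.21, adjusted p = 0.00252). CXCL3 entered the test only through that group: without it the mean log2 level of 1.58 lies under the lowest tested mean of 1.65, so a difference involving that group had to appear. The gene was above the array median on 4 arrays. The summed intensity of the leukocyte markers was 30.2 and 39.9 there, against 22.4 to 31.7 in the other groups. CD14 was at a group mean of 3.43, against 1.09 to 2.17, and PTPRC at 1.21, against 0.80 to 0.97. The other leukocyte markers with a probe set lay within the range of the other groups. They were CD3E (1.30), LYZ (1.10), CSF1R (2.35), ITGAM (1.42), FCGR3A (1.34) and CD79A (2.59). The part of these markers in the result was not tested.

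CCL20, which draws dendritic cells and lymphocytes through CCR6, was below the brightness limit with a mean log2 level of 1.59. It was at 2.01 and 2.58 in DLD1 WT cells without glutamine and at 1.37 and 1.29 in the same cells with it. In the other 6 groups all 12 arrays lay between 1.33 and 1.63. The DLD1 WT -Gln arrays were thus its 2 brightest, and they alone exceeded their array medians.

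NFKBIA encodes IκB-alpha, the inhibitor that holds NF-κB in the cytoplasm and is itself an NF-κB target. It was bright and varied little, with group means from 7.32 to 7.95. The 4 DLD1 groups stood above the 4 HCT116 groups, in the order WT +Gln, WT -Gln, Mut +Gln and Mut -Gln, with no overlap between neighbours. In HCT116 Mut cells it was at 7.64 and 7.55 with glutamine and 7.36 and 7.29 without, and in HCT116 WT cells at 7.34 and 7.33 with and 7.48 and 7.60 without. The 2 HCT116 derivatives thus changed in opposite directions with no overlap in either, a fall by 0.27 ± 0.08 in Mut cells (1.20-fold, adjusted p = 0.0319) and an uncalled 0.20 ± 0.08 in WT cells (adjusted p = 0.124). In DLD1 Mut cells NFKBIA was at 7.76 and 7.77 with and 7.66 and 7.68 without, and in DLD1 WT cells at 8.02 and 7.88 with and 7.80 and 7.79 without. These changes of -0.10 ± 0.08 and -0.15 ± 0.08 were not called. The HCT116 Mut call was lost without +Gln replicate 1 or 2 (-0.22 and -0.31, adjusted p = 0.153 and 0.0537). It was also lost without -Gln replicate 1 or 2 (-0.30 and -0.23, adjusted p = 0.0626 and 0.150), with no brightness limit (adjusted p = 0.0631) and with each line fitted alone (adjusted p = 0.101).

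TNFAIP3 encodes A20, an enzyme that edits ubiquitin chains and shuts down signalling to the IκB kinases. Its levels in DLD1 Mut cells were 4.69 and 4.42 with and 5.49 and 5.24 without glutamine, and in DLD1 WT cells 4.03 and 4.48 with and 5.24 and 5.31 without. In HCT116 Mut cells they were 3.67 and 3.46 with and 5.42 and 5.49 without, and in HCT116 WT cells 4.08 and 3.73 with and 3.40 and 3.96 without. The 6 arrays without glutamine of the first 3 derivatives lay above all 10 others, and in HCT116 WT cells the arrays overlapped. TNFAIP3 rose 1.75-fold in DLD1 Mut (0.81 ± 0.21, adjusted p = 0.0122), 2.03-fold in DLD1 WT (1.02 ± 0.21, adjusted p = 0.00456) and 3.72-fold in HCT116 Mut cells (1.90 ± 0.21, adjusted p = 7.43e-05). HCT116 WT cells gave no call (-0.23 ± 0.21). In DLD1 Mut cells the call was lost without +Gln replicate 2 (0.67, adjusted p = 0.0891) or -Gln replicate 1 (0.68, adjusted p = 0.0869).

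RELB encodes the subunit that pairs with the NFKB2 product in the slower, NIK-dependent arm. It was at 4.80 and 4.71 with and 6.41 and 6.31 without glutamine in DLD1 Mut cells, and at 4.29 and 4.22 with and 6.10 and 5.83 without in DLD1 WT cells. HCT116 Mut cells had 4.13 and 4.34 with and 5.56 and 5.91 without, and HCT116 WT cells 4.09 and 4.43 with and 4.47 and 4.64 without. All 6 arrays of the first 3 derivatives without glutamine again lay above the 10 others. The rise was 3.03-fold in DLD1 Mut (1.60 ± 0.16, adjusted p = 3.04e-05), 3.26-fold in DLD1 WT (1.71 ± 0.16, adjusted p = 3.38e-05) and 2.83-fold in HCT116 Mut cells (1.50 ± 0.16, adjusted p = 4.86e-05), against an uncalled 0.30 ± 0.16 in HCT116 WT cells (adjusted p = 0.226), where the arrays did not overlap either. By group mean DLD1 Mut -Gln (6.36) stood highest, DLD1 WT -Gln (5.96) overlapped with HCT116 Mut -Gln (5.74), and the lowest 3 groups, all with glutamine, overlapped at 4.23 to 4.26. The 3 called rises were called under every alternative run.

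LIF encodes leukemia inhibitory factor, a cytokine of the IL6 family that signals through LIFR and the shared receptor chain IL6ST. In DLD1 Mut cells it was at 6.40 and 6.27 with and 6.89 and 6.76 without glutamine, and in DLD1 WT cells at 6.81 and 6.87 with and 7.75 and 7.61 without. In HCT116 Mut cells it was at 7.14 and 7.17 with and 7.81 and 8.07 without, and in HCT116 WT cells at 7.01 and 7.24 with and 7.47 and 7.35 without. In each of the 4 derivatives both arrays without glutamine lay above both with it. LIF rose 1.41-fold in DLD1 Mut (0.49 ± 0.12, adjusted p = 0.00805), 1.79-fold in DLD1 WT (0.84 ± 0.12, adjusted p = 0.000473) and 1.72-fold in HCT116 Mut cells (0.78 ± 0.12, adjusted p = 0.000539). HCT116 WT cells gave no call (0.29 ± 0.12, adjusted p = 0.123). For DLD1 Mut cells the call was lost without +Gln replicate 2 (0.43, adjusted p = 0.0620) or -Gln replicate 1 (0.43, adjusted p = 0.0622). By group mean HCT116 Mut -Gln (7.94), DLD1 WT -Gln (7.68) and HCT116 WT -Gln (7.41) stood highest with no overlap between them. The arrays of DLD1 Mut cells without glutamine overlapped with those of DLD1 WT cells with it, and DLD1 Mut +Gln (6.33) was lowest.

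**Figure D3:**
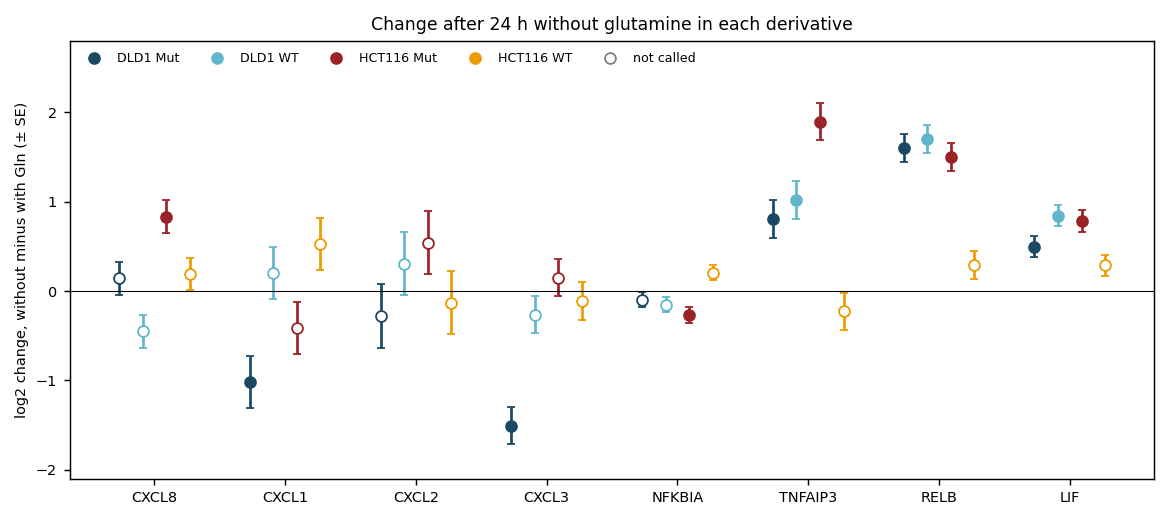
Log2 change of 8 genes after 24 h without glutamine in each of the 4 derivatives, with limma's SE as bars; filled points were called at adjusted p under 0.05 and open points were not. RELB, TNFAIP3 and LIF are filled in every derivative but HCT116 WT (orange), and CXCL1 and CXCL3 are filled below 0 in DLD1 Mut cells.

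Averaged over the 4 derivatives, RELB (1.28 ± 0.08, adjusted p = 3.34e-07), TNFAIP3 (0.87 ± 0.10, adjusted p = 4.32e-05) and LIF (0.60 ± 0.06, adjusted p = 1.03e-05) were higher without glutamine. These were 3 of the 7 genes other than CXCL3, where 47.7% of all genes were called, 24.3% higher and 23.5% lower. CXCL3 was lower (-0.43 ± 0.10), but it was tested only through DLD1 Mut cells with glutamine, so this difference, like each further one that includes that group, was fixed by the brightness limit and is a description. The response differed between the lines for RELB and CXCL8, 2 of those 7, against 19% of all genes, 10% higher in DLD1 and 8.93% lower. Relative to HCT116, the change in DLD1 was higher for RELB (0.75 ± 0.16, adjusted p = 0.00759) and lower for CXCL8 (-0.67 ± 0.18, adjusted p = 0.0281), and CXCL3 was at -0.90 ± 0.21. The CXCL8 call was lost in 11 of 23 alternatives, 10 of them the loss of 1 array, with values from -0.82 to -0.13 and adjusted p from 0.00372 to 0.125 over all 23. It was lost without DLD1 Mut +Gln replicate 2, either replicate of DLD1 WT +Gln, HCT116 Mut +Gln or HCT116 WT +Gln, DLD1 WT -Gln replicate 1, HCT116 Mut -Gln replicate 2 or HCT116 WT -Gln replicate 2.

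The comparison of Mut with WT cells asks what goes with the remaining PIK3CA allele, and it shares its arrays with the withdrawal comparisons. With glutamine, DLD1 Mut cells had less LIF than WT cells (-0.51 ± 0.12, 1.42-fold, adjusted p = 0.0322), 1 of the 7 genes other than CXCL3 against 5.81% of all genes, 2.6% higher and 3.2% lower. The LIF arrays did not overlap, but the call was lost without DLD1 Mut +Gln replicate 1 or 2 (-0.57 and -0.44, adjusted p = 0.0824 and 0.183) or DLD1 WT +Gln replicate 1 or 2 (-0.54 and -0.47, adjusted p = 0.0952 and 0.159). In HCT116 cells with glutamine limma called 0 of 8, against 3.23% of all genes, 1.12% higher and 2.12% lower. NFKBIA (0.26 ± 0.08) was the 1 of 8 under an unadjusted 0.05.

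Without glutamine the HCT116 derivatives differed in 4 of the 8 genes, all higher in Mut cells, against 24.6% of all genes called, 12.3% higher and 12.4% lower. TNFAIP3 was 3.43-fold higher (1.78 ± 0.21, adjusted p = 0.000202), RELB 2.27-fold (1.18 ± 0.16, adjusted p = 0.000403), CXCL8 1.80-fold (0.85 ± 0.18, adjusted p = 0.00654) and LIF 1.44-fold (0.53 ± 0.12, adjusted p = 0.00845), with no overlap between Mut and WT arrays in any of them. The call of CXCL8 was lost without HCT116 Mut -Gln replicate 2 (0.75, adjusted p = 0.0530) or HCT116 WT -Gln replicate 1 (0.67, adjusted p = 0.0589), and that of LIF without HCT116 Mut -Gln replicate 2 (0.40, adjusted p = 0.0761) or HCT116 WT -Gln replicate 2 (0.46, adjusted p = 0.0588). In DLD1 cells without glutamine 2 of 8 were called, against 10.3% of all genes, 4.36% higher and 5.91% lower. LIF was lower in Mut than in WT cells (-0.85 ± 0.12, 1.81-fold, adjusted p = 0.00164) and CXCL8 was higher (0.67 ± 0.18, 1.59-fold, adjusted p = 0.0420). LIF therefore stood on the other side in DLD1, lower in Mut cells, from where it stood in HCT116, though the difference between the lines in this comparison was not tested. The CXCL8 call in DLD1 was lost in 17 of 24 alternatives, among them without any array other than DLD1 Mut -Gln replicate 1 and HCT116 WT -Gln replicates 1 and 2, and stood at 0.36 (adjusted p = 0.237) without DLD1 Mut -Gln replicate 2.

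Whether the withdrawal response itself differed between genotypes was tested as an interaction. In HCT116 TNFAIP3 (2.12 ± 0.30, adjusted p = 0.00225) and RELB (1.21 ± 0.22, adjusted p = 0.00821) had a higher change in Mut than in WT cells and NFKBIA a lower one (-0.47 ± 0.12, adjusted p = 0.0346), 3 of 8 against 9.49% of all genes, 4.75% higher and 4.75% lower. CXCL8 (0.64 ± 0.26, adjusted p = 0.155) and LIF (0.50 ± 0.17, adjusted p = 0.0924) were not called. LIF was called on log2(intensity + 16) (0.46, adjusted p = 0.0368) and with trend and robust (adjusted p = 0.0421). The NFKBIA call was lost in 15 of 25 alternatives, 13 of them without 1 array (any but DLD1 WT +Gln replicates 1 and 2 and HCT116 WT -Gln replicate 1), with values from -0.53 to -0.41 and adjusted p from 0.00596 to 0.135 over all 25, and that of RELB was lost with each line fitted alone (adjusted p = 0.0649). In DLD1 limma called 0 of 8, against 0.823% of all genes, 0.255% higher and 0.568% lower. CXCL1 (-1.22 ± 0.41), CXCL3 (-1.24 ± 0.29) and CXCL8 (0.59 ± 0.26) were the 3 of 8 under an unadjusted 0.05. CXCL3 was called there without HCT116 WT +Gln replicate 1 or 2 (adjusted p = 0.0463), and in HCT116 CXCL2 was called without HCT116 WT +Gln replicate 1 (1.34, adjusted p = 0.0469).

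With glutamine the lines themselves differed in 6 of the 7 genes other than CXCL3, where 47% of all genes were called, 24.5% higher in DLD1 and 22.5% lower. NFKBIA (0.39 ± 0.06, adjusted p = 0.000247), TNFAIP3 (0.67 ± 0.15, adjusted p = 0.0032), CXCL2 (0.76 ± 0.25, adjusted p = 0.0278), CXCL1 (0.65 ± 0.20, adjusted p = 0.0219) and CXCL8 (0.42 ± 0.13, adjusted p = 0.0211) were higher in DLD1, each as the mean of 4 against 4 arrays. CXCL3 was at 1.11 ± 0.15, a difference that the brightness limit fixed. LIF was lower in DLD1 (-0.55 ± 0.08, adjusted p = 0.000244) and RELB was not called (0.26 ± 0.11, adjusted p = 0.0784). The calls of CXCL8 (0.39 to 0.41, adjusted p = 0.0516 to 0.0636) and CXCL1 (0.49 to 0.57, adjusted p = 0.0747 to 0.0883) were lost without replicate 2 of DLD1 Mut +Gln, HCT116 Mut +Gln or HCT116 WT +Gln. They were also lost without DLD1 WT +Gln replicate 1 for CXCL8 and replicate 2 for CXCL1. CXCL2 lost its call without replicate 1 of any of the 4 groups, at 0.43 to 0.70 (adjusted p = 0.0641 to 0.103), and RELB was called without HCT116 WT +Gln replicate 2 (0.34, adjusted p = 0.0337).

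Over the 8 group means TNFAIP3 and RELB had the most similar pattern of the 9 genes (r = 0.91), followed by CXCL1 and NFKBIA (r = 0.74) and CXCL2 and TNFAIP3 (r = 0.74). CXCL1 and CXCL3 were at 0.62, and CXCL8 was at 0.59 with TNFAIP3 and -0.18 with CXCL1. These 8 points share lines, derivatives and a medium, and the correlations are a description. Among all tested genes the pattern of CXCL8 was most like those of MAP4K5 (r = 0.95), HRC (0.93), MYH7B (0.90), NIFK (0.90) and UXT (0.90). NFKBIA was most like PRRC1 (0.97), TMEM184C (0.97) and PRODH (0.97), CXCL1 most like TRMT61B (0.94) and SAMD10 (0.93), and CCL20, which was high in 1 group, most like SLCO1B1 (0.96) and CD8A (0.95).

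The rest of the pathway was read from lists of other genes, whose counts are a description. Over all tested genes 16.8%, 14%, 16.4% and 10.3% were called higher without glutamine in DLD1 Mut, DLD1 WT, HCT116 Mut and HCT116 WT cells. In the same order 16.8%, 13%, 16.5% and 10.1% were called lower. Of 9 further NF-κB subunits and IκB proteins, 4, 3, 4 and 1 rose without glutamine in DLD1 Mut, DLD1 WT, HCT116 Mut and HCT116 WT cells and 0, 0, 1 and 0 fell, with median changes of 0.10, 0.16, 0.33 and 0.06. NFKB2, the partner of RELB, rose in all 4 derivatives (1.43 ± 0.14, 1.36 ± 0.14, 0.82 ± 0.14 and 0.48 ± 0.14 in the same order), and its response was higher in DLD1 than in HCT116 by 0.75 ± 0.14 (adjusted p = 0.00439). NFKBIZ, a nuclear IκB protein, rose in DLD1 Mut (0.79 ± 0.13) and HCT116 Mut cells (0.68 ± 0.13). Of 20 kinases and adaptors that lead to NF-κB, 5, 4, 7 and 6 rose and 3, 2, 5 and 2 fell, with medians of 0.08, 0.08, 0.14 and 0.25. MAP3K14, which encodes NIK, rose in DLD1 Mut (1.90 ± 0.15) and DLD1 WT cells (1.19 ± 0.15). Its group means with and without glutamine were 4.98 and 4.99 in HCT116 Mut and 4.85 and 4.69 in HCT116 WT cells. The response differed between the lines by 1.62 ± 0.15 (adjusted p = 0.000116). MYD88, an adaptor of Toll-like receptors, fell in both DLD1 derivatives (-1.18 ± 0.16 in each) and in HCT116 Mut cells (-0.57 ± 0.16).

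Among 11 other feedback inhibitors 5, 3, 5 and 5 rose and 0, 0, 1 and 0 fell (medians 0.24, 0.08, 0.44 and 0.29). Shares over all tested genes were 16.8%, 14%, 16.4% and 10.3% higher and 16.8%, 13%, 16.5% and 10.1% lower. CYLD, a deubiquitinase that acts beside A20, rose in DLD1 Mut (1.36 ± 0.09), DLD1 WT (0.98 ± 0.09), HCT116 Mut (1.96 ± 0.09) and HCT116 WT cells (0.53 ± 0.09), and its response was higher in HCT116 Mut than WT cells by 1.43 ± 0.12 (adjusted p = 0.00026). Of 19 other NF-κB target genes 7, 8, 6 and 7 rose and 2, 3, 0 and 0 fell (medians 0.33, 0.12, 0.23 and 0.27). The proteoglycan SDC4 rose in all 4 derivatives by 1.09 to 1.63, and so did the growth arrest gene GADD45B, in DLD1 Mut (2.56 ± 0.12), DLD1 WT (2.04 ± 0.12), HCT116 Mut (1.57 ± 0.12) and HCT116 WT cells (0.53 ± 0.12). Of 8 other chemokines 1, 1, 0 and 0 rose and 2, 2, 1 and 1 fell (medians -0.19, -0.13, -0.01 and -0.02). CXCL5 fell in DLD1 Mut (-1.43 ± 0.12), DLD1 WT (-1.55 ± 0.12) and HCT116 WT cells (-0.44 ± 0.12). CX3CL1 fell in DLD1 Mut and DLD1 WT cells (-1.40 ± 0.36 and -1.36 ± 0.36), and CCL28 rose there (0.85 ± 0.17 and 0.88 ± 0.17). CXCL5, which lies on chromosome 4 with CXCL8 and the GRO genes and also acts on CXCR2, was at group means of 12.0 in both DLD1 derivatives with glutamine and 2.68 to 2.90 in HCT116. CXCR1, CXCR2 and CCR6, the receptors of the chemokines, were below the brightness limit, with mean log2 levels of 1.44, 1.28 and 1.33. Of the receptor chains for LIF, IL6ST rose in all 4 derivatives by 0.33 to 0.72, and LIFR, which was 3.07 ± 0.14 lower in DLD1 than in HCT116 with glutamine, rose in HCT116 Mut cells (0.80 ± 0.20, adjusted p = 0.0112).

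**Figure D4:**
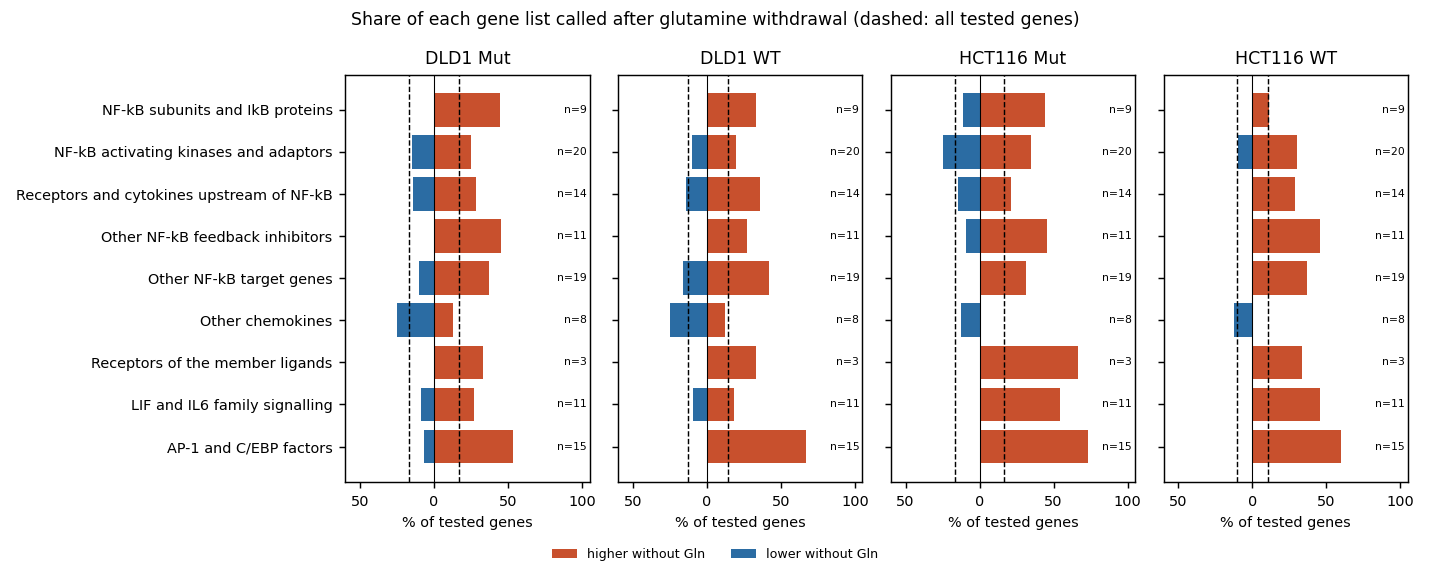
Share of the tested genes of 9 lists called higher (orange) or lower (blue) after glutamine withdrawal, in percent, in each of the 4 derivatives; n is the number tested and dashed lines mark the shares over all 15676 tested genes. AP-1 and C/EBP factors have the longest bars, with 8 to 11 of 15 higher, and 1 or 2 of 8 other chemokines are lower in each derivative.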

How the data were processed

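Human total RNA from 16 cultures in 8 groups of 2 was labelled with the Affymetrix whole-transcript protocol, per the labels' protocols. The deposited table holds linear intensity values, 1 per probe set and array; the normalization the authors used is not given in the sources used here. Deposited intensities were put on the log2 scale with no pseudocount. Of 53617 probe sets 23871 had 1 gene symbol, 1842 had several and 27904 had none in the platform annotation, and 90 symbols were updated through Entrez identifiers to RefSeq (GRCh38.p14). The brightest single-symbol probe set stood for a gene, and the brightest 70% of genes, by mean over all arrays, were tested (lowest mean log2 1.65). All contrasts came from 1 limma fit (lmFit and eBayes, limma 3.58.1, R 4.3.3) of 8 group means with 8 residual and 2.49 prior degrees of freedom, with Benjamini-Hochberg adjustment over the tested genes. The fit was tested on simulated data. Promoter windows were read from RefSeq and aligned with Biopython 1.88.

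The genes described and the wider lists were chosen with earlier results of these data known. Named besides them are, per list and contrast, up to 3 called genes by adjusted p in the direction with more calls and 1 in the other, and the 5 genes most correlated with CXCL8, CXCL1, CCL20 and NFKBIA, of which the text gives a part. Alternatives were no brightness limit, genes above the median, quantile normalization, a shift to equal medians, averaging a gene's probe sets, log2(intensity + 16), a replicate block, each line fitted alone, eBayes with trend and robust, and each array left out. With 2 arrays per group, their number limits the precision.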

Additional observations from a re-analysis of the deposited data

Results flagged for a closer look

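Differences between the lines in the response to glutamine withdrawal, tested in the limma fit, were called for 3 of the 8 genes, as DLD1 minus HCT116: RELB (0.75), CXCL3 (-0.90) and CXCL8 (-0.67). Of all tested genes 19% were called, 10% higher in DLD1 and 8.93% lower. CXCL3 entered the test only through DLD1 Mut cells with glutamine, its brightest group, so its difference is a description, and for CXCL8 the call was lost in 11 of 23 alternatives.

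Differences between Mut and WT cells in the response, tested as an interaction, were called in HCT116 for TNFAIP3 (2.12), RELB (1.21) and NFKBIA (-0.47). Of all tested genes 9.49% were called there, 4.75% higher and 4.75% lower. The NFKBIA arrays without glutamine lay below those with it in HCT116 Mut cells and above them in HCT116 WT cells, where the change itself was not called, and its interaction was lost in 15 of 25 alternatives.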

How the results depend on the processing

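Of 38 calls of the 8 tested genes over 13 contrasts, 24 were kept in all alternatives run, 14 were lost in at least 1 and 0 reversed. Values that were not called changed sign in 26 cases, counted per gene, contrast and alternative, so a value can enter several times. The 24 include every call of CXCL3. Those differences were fixed by the brightness limit, so that they were kept says nothing of how stable they are. Counts of called genes among the 8 that moved by over 1.5 times, or from 0, were 3 for DLD1 Mut withdrawal, 1 for the line difference in response and 4 for DLD1 against HCT116 with genes above the median. CXCL8, CXCL1 and CXCL3 lay under that median and left the test. All lower counts with this setting come from their absence, and no gene still tested lost a call. They were 1 for HCT116 WT withdrawal, for Mut against WT with glutamine in HCT116 and for the DLD1 interaction with log2(intensity + 16). For Mut against WT in DLD1 they were 1 with glutamine (no brightness limit, genes above the median, lines alone) and 1 without it (these 3, log2(intensity + 16), trend and robust), and 1 for the HCT116 interaction with lines alone. Smaller moves, of 1 gene each, were 4 for HCT116 Mut withdrawal (no limit, genes above the median, lines alone), 3 on average (genes above the median) and 2 for the line difference in response (log2(intensity + 16)). They were 5 for Mut against WT without glutamine in HCT116 (log2(intensity + 16), trend and robust), 2 (no limit) or 4 (log2(intensity + 16), trend and robust) for the HCT116 interaction and 6 for DLD1 against HCT116 (log2(intensity + 16)). CXCL8 over all derivatives was called (0.26, adjusted p = 0.0104) without DLD1 Mut -Gln replicate 1.

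Over all genes, lines fitted alone gave 2070 calls for HCT116 WT withdrawal against 3189. Mut against WT with glutamine gave 910 in DLD1 and 507 in HCT116, against 1438 and 1004 with log2(intensity + 16), 599 and 89 with lines alone and 1379 and 963 with trend and robust. The DLD1 interaction gave 129, against 46 (no limit), 328 (genes above the median), 691 (log2(intensity + 16)), 76 (replicate block), 3 (lines alone) and 602 (trend and robust), and the HCT116 interaction 1488, against 2319 (log2(intensity + 16)) and 430 (lines alone). A shift to equal medians moved the share of calls that were higher from 34.5% to 44.8% for Mut against WT with glutamine in HCT116, from 42.4% to 54.1% without it in DLD1 and from 31.0% to 44.0% for the DLD1 interaction.

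Leaving out each array in turn gave, of the 8 genes and of all genes, 2 to 5 and 3996 to 5281 calls (DLD1 Mut withdrawal), 3 to 4 and 2916 to 4222 (DLD1 WT), 4 to 5 and 3967 to 5119 (HCT116 Mut), 0 and 2054 to 3140 (HCT116 WT), 4 to 5 and 7056 to 7277 (average) and 2 to 3 and 2384 to 2690 (line difference). Mut against WT gave 1 to 2 and 459 to 887 (DLD1 with glutamine), 0 and 199 to 488 (HCT116 with), 1 to 2 and 709 to 1563 (DLD1 without) and 2 to 4 and 2575 to 3837 (HCT116 without). Interactions gave 0 to 1 and 15 to 97 in DLD1 and 2 to 3 and 842 to 1396 in HCT116, and the line comparison 5 to 7 and 6659 to 7345. An array left out leaves its group with 1, assumed to vary like the others.

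The labels link same-numbered arrays only by their number and do not say whether they shared a day or batch. Their deviations from the group means correlated at -0.04 to 0.03, and the replicate block left each count among the 8 genes as it was.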

Other observations

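The list of AP-1 and C/EBP factors, which also holds EGR1, ATF4 and DDIT3, had the largest share of tested genes called higher among the 9 lists in each derivative. Of 15 tested, 8, 10, 11 and 9 were higher without glutamine in DLD1 Mut, DLD1 WT, HCT116 Mut and HCT116 WT cells and 1, 0, 0 and 0 were lower, with median changes of 0.71, 0.90, 0.75 and 0.67. Shares over all tested genes were 16.8%, 14%, 16.4% and 10.3% higher and 16.8%, 13%, 16.5% and 10.1% lower. JUN rose in DLD1 Mut (2.13 ± 0.10), DLD1 WT (1.77 ± 0.10), HCT116 Mut (3.30 ± 0.10) and HCT116 WT cells (0.67 ± 0.10), and its response was higher in HCT116 Mut than WT cells by 2.63 ± 0.15 (adjusted p = 4.86e-05). FOSL1 (0.98 ± 0.17, adjusted p = 0.00605) and FOSL2 (0.77 ± 0.15, adjusted p = 0.0114) had the same sign of interaction there, as TNFAIP3 and RELB did. These 3 of the 15 were called in that interaction, against 4.75% of all tested genes higher and 4.75% lower. The other 12 were not called, and their group means went in both directions.

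Of 14 receptors and cytokines upstream of NF-κB, 4, 5, 3 and 4 rose and 2, 2, 2 and 0 fell. Shares over all tested genes were 16.8%, 14%, 16.4% and 10.3% higher and 16.8%, 13%, 16.5% and 10.1% lower. TNFRSF12A, the receptor of the cytokine TWEAK, rose in DLD1 Mut (1.17 ± 0.09), DLD1 WT (0.85 ± 0.09), HCT116 Mut (1.52 ± 0.09) and HCT116 WT cells (0.62 ± 0.09), with a higher response in HCT116 Mut than WT cells (0.90 ± 0.12, adjusted p = 0.00196). TLR2, a receptor for bacterial lipoproteins, was 3.90 ± 0.16 higher in DLD1 than in HCT116 with glutamine and fell without it in DLD1 Mut (-1.99 ± 0.22) and DLD1 WT cells (-2.06 ± 0.22). TLR2 had group means of 1.09 to 1.64 in HCT116 and passed the brightness limit only through DLD1, so its line difference is a description. Of 11 genes of LIF and IL6 signalling 3, 2, 6 and 5 rose and 1, 1, 0 and 0 fell, with medians of 0.11, 0.16, 0.47 and 0.46. IL6R rose in DLD1 Mut (1.10 ± 0.20), HCT116 Mut (3.07 ± 0.20) and HCT116 WT cells (0.82 ± 0.20). OSMR, the receptor chain for oncostatin M, was lower in DLD1 than in HCT116 with glutamine (-6.25 ± 0.12). Its DLD1 group means were 1.42 to 1.66, so it passed the brightness limit only through HCT116. That difference is therefore a description.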
